A study of Mus musculus with 12 samples.

Results

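Neurexin, neuroligin and Cntnap genes encode cell adhesion proteins of the synapse, and H3K27ac and H3K27me3 peaks were described here at 8 of them, Nrxn2, Nrxn3, Nlgn1, Nlgn2, Nlgn3, Cntnap2, Cntnap4 and Cntnap5a, of 21851 protein-coding genes. The window of each gene ran from 5 kb upstream of the TSS of its longest protein-coding transcript to the end of the gene (mm10, GENCODE vM21 basic annotation). The 8 windows held 515 of the 376998 peaks in the 8 peak lists, of which 422 were H3K27ac and 93 were H3K27me3 peaks. The cells were dissociated from the cortex of heterozygous Gad67-GFP pups (a mixed background outcrossed to CD-1) at postnatal day 2, with tissue of 2 to 3 litters pooled for a sample, and were sorted into GFP+ cells (cortical interneurons, CINs) and GFP- cells (non-CINs). In this line GFP is made where the GABA-synthesizing enzyme Gad67 is expressed, so the CIN group holds GABAergic cells of every subtype together and the non-CIN group holds every other cell, glutamatergic neurons and glia included. Native ChIP with MNase-digested chromatin was performed for each mark in 2 replicates of each population, and all groups carry the same reporter allele.

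Neurexins sit mainly in the presynaptic membrane and bind neuroligins across the synaptic cleft. Each neurexin gene has an upstream promoter for the long alpha form and internal promoters for shorter forms, of which the beta form is the best known. Of the neuroligins, Nlgn1 is found mainly at excitatory synapses and Nlgn2 at inhibitory synapses, while Nlgn3 can be found at both. Cntnap proteins (the Caspr family) share the domain layout of neurexins, and several pair with contactins. H3K27ac marks active promoters and enhancers, while H3K27me3 is laid down by Polycomb complexes and marks repressed or poised elements.

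The H3K27ac lists held from 46040 to 62505 peaks and the H3K27me3 lists from 36662 to 45081 peaks, and they covered 40.8 to 56.3 Mb and 34.5 to 49.8 Mb. The lists hold peak calls with no read counts, so absence means that no peak was called. A gene was called higher in a population when both of its lists were above both lists of the other population. With 2 lists against 2 there are only 3 ways to split the lists, and the smallest p an exact permutation test can give is 0.333, so no test across samples was run and each call is read against the share of all genes that met it. A longer covered length in a sorted population may come from more cells with the mark or from more of it per cell, which cannot be told apart here. Of 9 GABAergic markers, 7 had more H3K27ac in CINs, among them Gad1, Gad2, Dlx1 and Dlx2, and 6 had no peak in either non-CIN list, while Lhx6 had none in any of the 4 lists. Summed over the 9 genes, they had 63591 to 75566 bp in CINs, against 15738 to 16990 bp in non-CINs. The glutamatergic markers were poorly marked in either population: Neurod2 and Slc17a7 had no peak in any list, Emx1 was higher in non-CINs, Slc17a6 was higher in CINs, and the 7 genes summed to 5019 to 10353 bp in CINs, against 5659 to 7465 bp in non-CINs. All 4 astrocyte markers were higher in non-CINs, at 48894 to 52302 bp against 32015 to 32545 bp in CINs, and 2 of 4 microglial markers were higher in non-CINs, at 15328 to 18169 bp against 11572 to 12878 bp. The oligodendrocyte lineage list split 1 to 1 (11963 to 14933 bp in CINs, 12425 to 14566 bp in non-CINs) and none of 3 endothelial markers was called (6631 to 12598 bp, 8953 to 13548 bp). The part of these other cells in the results below was not tested.

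Promoters of the Nlgn1 and Nrxn3 genes with different mark patterns are shown first, because they carry the contrast between marks within a gene. Each sequence is the 250 bases before a TSS on the strand of the gene, 5′ to 3′, read from the RefSeq copy of GRCm38 (mm10), with each CG dinucleotide in capitals. RefSeq promoter entries matched 4 of the 8 genes by symbol and lay at a TSS used here in 3 of them, Nlgn1 not included.
Nlgn1, most upstream TSS, chr3:26332461-26332710, minus strand: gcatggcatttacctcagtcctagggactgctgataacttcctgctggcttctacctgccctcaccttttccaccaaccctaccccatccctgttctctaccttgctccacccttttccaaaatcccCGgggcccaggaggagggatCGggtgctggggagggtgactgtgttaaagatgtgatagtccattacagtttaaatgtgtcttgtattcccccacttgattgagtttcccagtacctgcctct
Nlgn1, second TSS, chr3:26153308-26153557, minus strand: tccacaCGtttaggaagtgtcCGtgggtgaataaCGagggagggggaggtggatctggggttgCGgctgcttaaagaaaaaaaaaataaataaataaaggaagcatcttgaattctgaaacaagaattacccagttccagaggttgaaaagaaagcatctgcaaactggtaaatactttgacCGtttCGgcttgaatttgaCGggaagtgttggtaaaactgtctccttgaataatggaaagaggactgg
Nrxn3, TSS of the longest protein-coding transcript, chr12:88794254-88794503, plus strand: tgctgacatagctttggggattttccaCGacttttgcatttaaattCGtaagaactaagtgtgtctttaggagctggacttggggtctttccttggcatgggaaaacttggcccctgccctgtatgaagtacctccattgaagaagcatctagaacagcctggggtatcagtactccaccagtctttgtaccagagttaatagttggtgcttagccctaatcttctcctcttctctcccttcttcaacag
Nrxn3, internal TSS, chr12:89812233-89812482, plus strand: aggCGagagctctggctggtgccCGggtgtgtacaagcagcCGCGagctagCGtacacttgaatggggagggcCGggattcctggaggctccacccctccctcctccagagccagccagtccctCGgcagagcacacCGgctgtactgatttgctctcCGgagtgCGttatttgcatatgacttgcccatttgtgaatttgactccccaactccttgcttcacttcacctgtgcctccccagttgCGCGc
In Nlgn1 the promoter with H3K27me3 in all 4 lists (the most upstream) held 2 CG dinucleotides, with a CpG observed over expected ratio of 0.12, and the promoter with H3K27ac in all 4 lists (the second) held 7, with a ratio of 0.71. In Nrxn3 the promoter of the longest protein-coding transcript, which had neither mark, held 2 CG dinucleotides with a ratio of 0.15, and the internal promoter with H3K27me3 in all 4 lists held 12 and a ratio of 0.54. The former is not the most upstream start of Nrxn3. A start 71628 bp further upstream, listed only in the comprehensive annotation, had H3K27ac in all 4 lists. The absence of marks therefore holds for this annotated start and not for Nrxn3 promoters in general. With peaks of −log10 q of at least 4 alone, neither the Nlgn1 nor the Nrxn3 promoter with H3K27me3 kept it in all 4 lists. Over all 27486 promoters of protein-coding genes the median was 6 CG dinucleotides and a ratio of 0.42.

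The 4 regions with peaks in 1 population only that the text returns to most are shown next, as 200 bases at the centre of each region on the plus strand. TAATTA, the core bound by DLX and other homeodomain factors, is in capitals where it occurs (the motif reads the same on both strands).
Nrxn3, CIN-only, chr12:90113657-90113856: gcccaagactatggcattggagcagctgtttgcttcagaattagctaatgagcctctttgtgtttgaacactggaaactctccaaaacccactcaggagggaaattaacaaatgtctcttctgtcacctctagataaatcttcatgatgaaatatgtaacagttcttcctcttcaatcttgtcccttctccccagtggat
Cntnap2, CIN-only, chr6:47050762-47050961: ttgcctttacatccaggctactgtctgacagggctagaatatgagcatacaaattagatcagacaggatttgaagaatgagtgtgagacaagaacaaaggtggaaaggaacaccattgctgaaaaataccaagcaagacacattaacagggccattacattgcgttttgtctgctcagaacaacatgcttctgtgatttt
Nrxn2, CIN-only, chr19:6416222-6416421: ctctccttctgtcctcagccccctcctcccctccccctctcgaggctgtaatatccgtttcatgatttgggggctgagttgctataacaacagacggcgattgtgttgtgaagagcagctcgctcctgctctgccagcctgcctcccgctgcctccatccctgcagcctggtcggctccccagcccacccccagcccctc
Cntnap5a, non-CIN-only, chr1:115809037-115809236: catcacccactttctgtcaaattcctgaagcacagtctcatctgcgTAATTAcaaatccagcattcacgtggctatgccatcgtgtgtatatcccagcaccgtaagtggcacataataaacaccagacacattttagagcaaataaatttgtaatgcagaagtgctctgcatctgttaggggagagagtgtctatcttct
The core was present in the Cntnap5a region, which was called in non-CINs, and not in the 3 CIN-only regions.

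More H3K27ac in CINs than in non-CINs was found at the neurexins Nrxn2 and Nrxn3, and at none of the neuroligin or Cntnap genes by the same rule. Cntnap2 was close to it, and was higher in CINs too with list totals made equal or with peaks of −log10 q of at least 4 alone. Nrxn3 had about 2.22 times the covered length in CINs and Nrxn2 about 1.48 times. Compared within each replicate, which is a looser rule, Cntnap2 and Cntnap4 were also higher in CINs. No member had more H3K27ac in non-CINs. Of all protein-coding genes, 12.1% were higher in CINs and 12% in non-CINs, and of those with a window of 100 kb or more 19.9% and 18.6%, so 2 of 8 genes is near the share of genes with long windows. For H3K27me3, Nrxn2 was higher in non-CINs and no member was higher in CINs, against 4.49% and 3% of all genes and 12.2% and 5.68% of genes with long windows. The median difference in H3K27ac covered length, CIN minus non-CIN, was 828 bp over the 8 genes and 0 bp over all genes, and that of H3K27me3 was -38.5 bp over the 8 genes and 0 bp over all genes. The H3K27ac median rested on replicate 1, where it was 2256 bp with all 8 genes longer in CINs, while in replicate 2 it was 75.5 bp with 4 genes longer and 4 shorter.

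**Figure D1:**
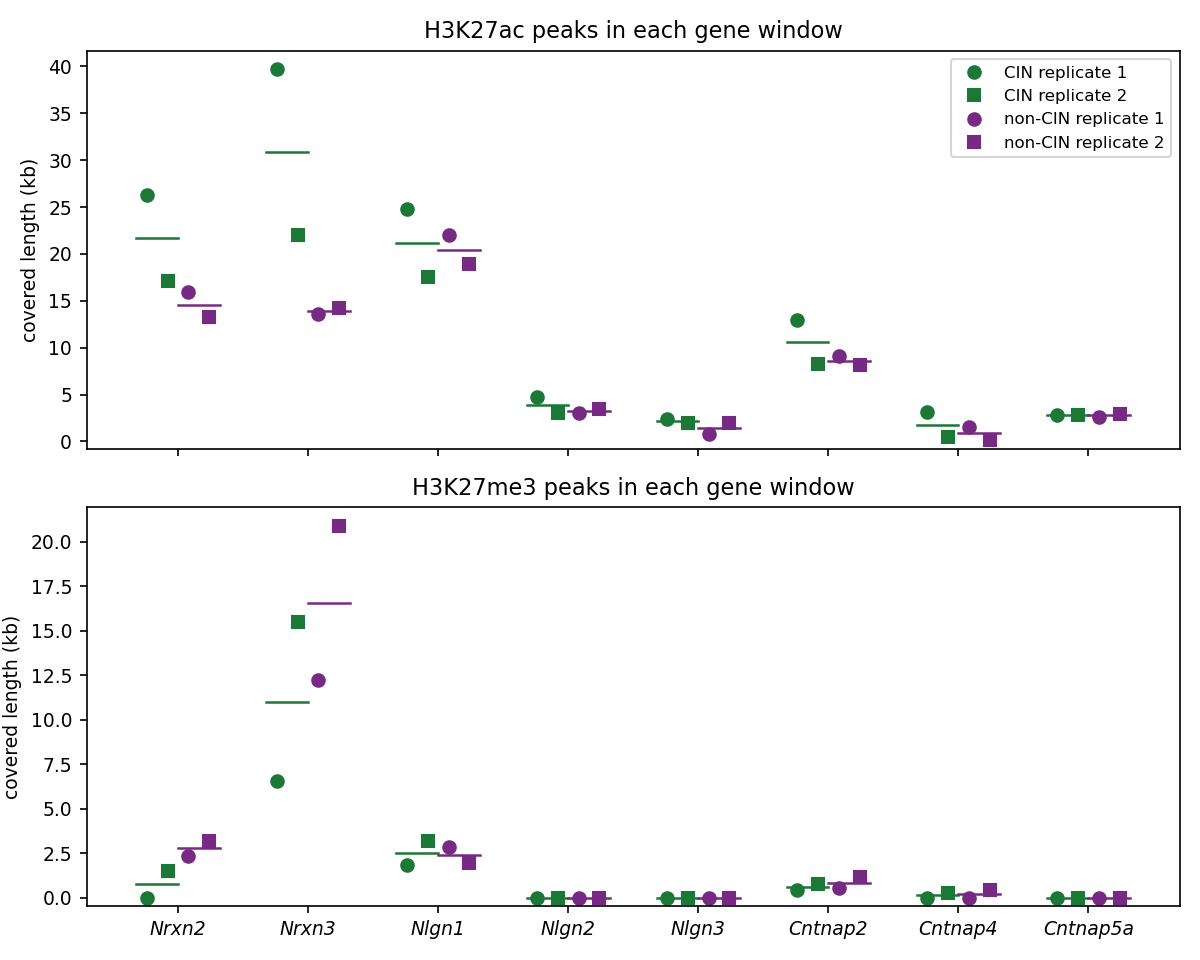
Length covered by H3K27ac (top) and H3K27me3 peaks (bottom) in each gene window, in kb, with 1 point per peak list (circles, replicate 1; squares, replicate 2; green, CINs; purple, non-CINs) and a line at the mean of each population. For H3K27ac both CIN lists lie above both non-CIN lists at Nrxn2 and Nrxn3, and for H3K27me3 both non-CIN lists lie above both CIN lists at Nrxn2.

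Nrxn3 (chr12:88722876-90334935, plus strand) is a large gene whose window spanned 1545 kb. Its H3K27ac peaks covered 39704 bp in CIN replicate 1 (49 peaks), 21975 bp in CIN replicate 2 (32 peaks), 13567 bp in non-CIN replicate 1 (21 peaks) and 14200 bp in non-CIN replicate 2 (20 peaks). The non-CIN lists were close to each other, whereas CIN replicate 1 was well above CIN replicate 2, and the groups did not overlap. The means were 30840 ± 12536 bp in CINs and 13884 ± 448 bp in non-CINs (SD, n = 2), and the difference was 7775 bp within replicate 2 and 26137 bp within replicate 1. CIN replicate 1 is also the longest of the 4 lists, but with each list scaled to the same total length the difference remained at 15599 bp. Its highest peak stood at the 93.6 and 80.7 percentile of fold enrichment in the CIN lists and at the 88.8 and 92.6 percentile in the non-CIN lists, which overlap. Thus the groups were apart in how much of Nrxn3 was covered and overlapped in the rank of its highest peak.

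H3K27me3 at Nrxn3 covered 6569 and 15478 bp in the CIN lists and 12227 and 20903 bp in the non-CIN lists. The groups overlapped, although the non-CIN list was the longer within each replicate. The highest H3K27me3 peak was ranked higher in non-CINs, at the 93.7 and 90.8 percentile against 83.5 and 82.7 in CINs. Of the genes with an H3K27me3 peak in all 4 lists, 19% met this call in non-CINs and 13.6% in CINs, and Nrxn3 was the only member that did.

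Peaks of the 4 lists of a mark within 500 bp of each other were joined to compare positions. Nrxn3 then had 50 H3K27ac regions, of which 10 were found in all 4 lists, 12 in both CIN lists and no non-CIN list, 1 in both non-CIN lists and no CIN list, and 17 in a single list. By comparison, the 8 genes together had 164 regions, with 42 in all 4 lists, 21 in both CIN lists only and 8 in both non-CIN lists only, so Nrxn3 held 12 of the 21. The strongest region in all 4 lists was chr12:88800215-88801896 in intron 1, 6.55 kb from the TSS, at the 93.6, 80.7, 88.8 and 92.6 percentile. Another lay in intron 18 (chr12:90273773-90275881) and a further one in intron 7 (chr12:89289238-89291903).

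**Figure D2:**
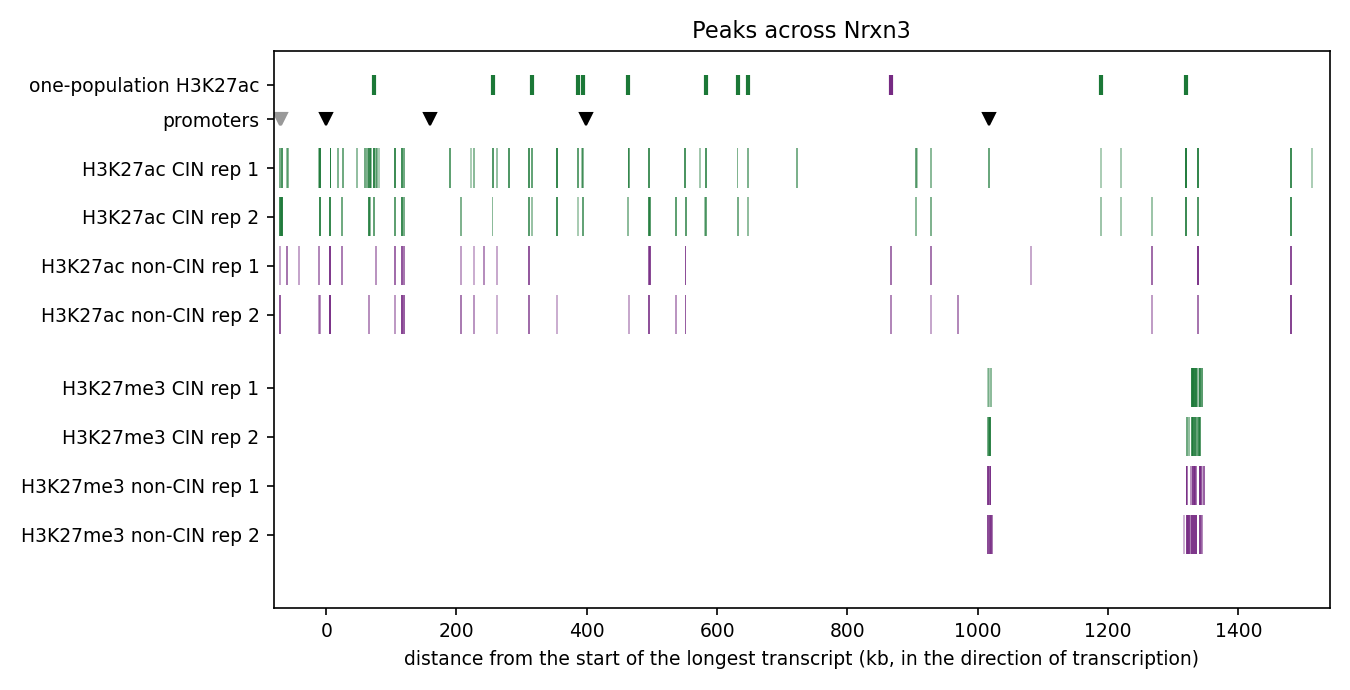
Peaks of the 8 lists across Nrxn3 by distance from the start of its longest protein-coding transcript in kb (bars, narrow ones widened to be visible, darker for a higher fold percentile within the list; green, CINs; purple, non-CINs). Triangles mark promoters (black, basic annotation; grey, comprehensive annotation only), and the ticks at the top mark H3K27ac regions of a single population, 11 of CINs and 1 of non-CINs. H3K27me3 is limited to the internal promoter near 1018 kb and a cluster near 1317 to 1347 kb.

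CIN-only regions were then defined as merged peaks of a CIN list with no overlap in the non-CIN list of the same replicate number that overlapped between replicates, and non-CIN-only regions in the same way. Nrxn3 had 11 CIN-only and 1 non-CIN-only H3K27ac regions, all in introns. This is 7.12 CIN-only regions per Mb of window, against 1.95 over the windows of all protein-coding genes, and 0.647 non-CIN-only regions per Mb, against 1.77. The CIN-only density was as high at Nrxn2 (7.67 per Mb, from 1 region) and nearly so at Cntnap4 (6.3 per Mb, from 2 regions). It was near or below that of all windows at the other members, with 2.19 per Mb at Nlgn1, 1.33 at Cntnap2, 1.1 at Cntnap5a and 0 at Nlgn2 and Nlgn3. Only 2 protein-coding genes had more CIN-only regions in number than Nrxn3, and 1 other gene had as many. At least 1 CIN-only region was found at 6.71% of all genes and 34.3% of genes with long windows, and at least 1 non-CIN-only region at 6.76% and 29.6%.

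The highest-ranked CIN-only region of Nrxn3 was chr12:90113324-90114190 in intron 15, 1319 kb from the TSS, at the 93.3 and 76.8 percentile of its CIN lists. Its centre is the first of the regions printed above, and the nearest non-CIN H3K27ac peak was 17716 bp away in replicate 1 and 17802 bp away in replicate 2. The next was chr12:88867201-88869521 in intron 3, a stretch of 2321 bp at the 83.4 and 50.6 percentile. It was followed by chr12:89376443-89377305 in intron 9 (64.7 and 47.3 percentile), chr12:89425899-89425957 in intron 9 (31.5 and 36.7) and chr12:89187859-89188750 in intron 4 (25.4 and 50.6). The other 6 CIN-only regions had a lower percentile of at most 23.5. The single non-CIN-only region, chr12:89661474-89661766 in intron 14, stood at the 47.7 and 32.6 percentile.

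H3K27me3 at Nrxn3 lay at 2 places. At the internal promoter (chr12:89812483), 1018 kb from the TSS of the longest protein-coding transcript, a region of 6486 bp (chr12:89809614-89816099) had a peak in all 4 lists, with the highest at the 21.9 and 71.6 percentile in CINs and the 85.3 and 66.1 percentile in non-CINs. At the promoter itself the H3K27me3 peaks were low in their lists, from the 2.98 to the 37.0 percentile, and there was an H3K27ac peak in CIN replicate 1 alone, at the 46.4 percentile. In intron 15 a cluster of H3K27me3 regions ran from chr12:90111221 to chr12:90141564. The largest, of 9254 bp (chr12:90122288-90131541), had a peak in all 4 lists at the 83.5, 82.7, 87.9 and 90.8 percentile, and another of 5649 bp (chr12:90133898-90139546) did so too. Between them lay an H3K27ac region found in all 4 lists (chr12:90131907-90133292). The highest-ranked CIN-only H3K27ac region lay just before chr12:90114634-90116249, an H3K27me3 region with no peak in CIN replicate 1, the 43.9 percentile in CIN replicate 2 and the 83.7 and 86.0 percentile in non-CINs. Between lists of the same population and replicate number, which are separate ChIP samples, the marks shared 154 bp at Nrxn3 in CIN replicate 1 and none in the other 3 pairs of lists.

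Nrxn2 (chr19:6418731-6544169, plus strand) has a window of 130.4 kb and was densely marked, with H3K27ac over 20.1% and 13.1% of the window in CINs and 12.2% and 10.2% in non-CINs. H3K27ac covered 26250 bp in CIN replicate 1 (27 peaks) and 17073 bp in CIN replicate 2 (15 peaks), against 15905 bp (16 peaks) and 13285 bp (11 peaks) in the non-CIN lists. The groups did not overlap, but CIN replicate 2 and non-CIN replicate 1 were separated by far less than the 2 CIN lists. The means were 21662 ± 6489 bp and 14595 ± 1853 bp (SD, n = 2), and the difference was 3788 bp within replicate 2 and 10345 bp within replicate 1. The highest peak was at the 90.9 and 80.9 percentile in CINs and the 90.1 and 81.0 percentile in non-CINs, which is nearly the same. Unlike Nrxn3, of the 22 H3K27ac regions of Nrxn2 only 1 was in both CIN lists alone, 2 were in both non-CIN lists alone, and 8 were in all 4 lists.

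**Figure D3:**
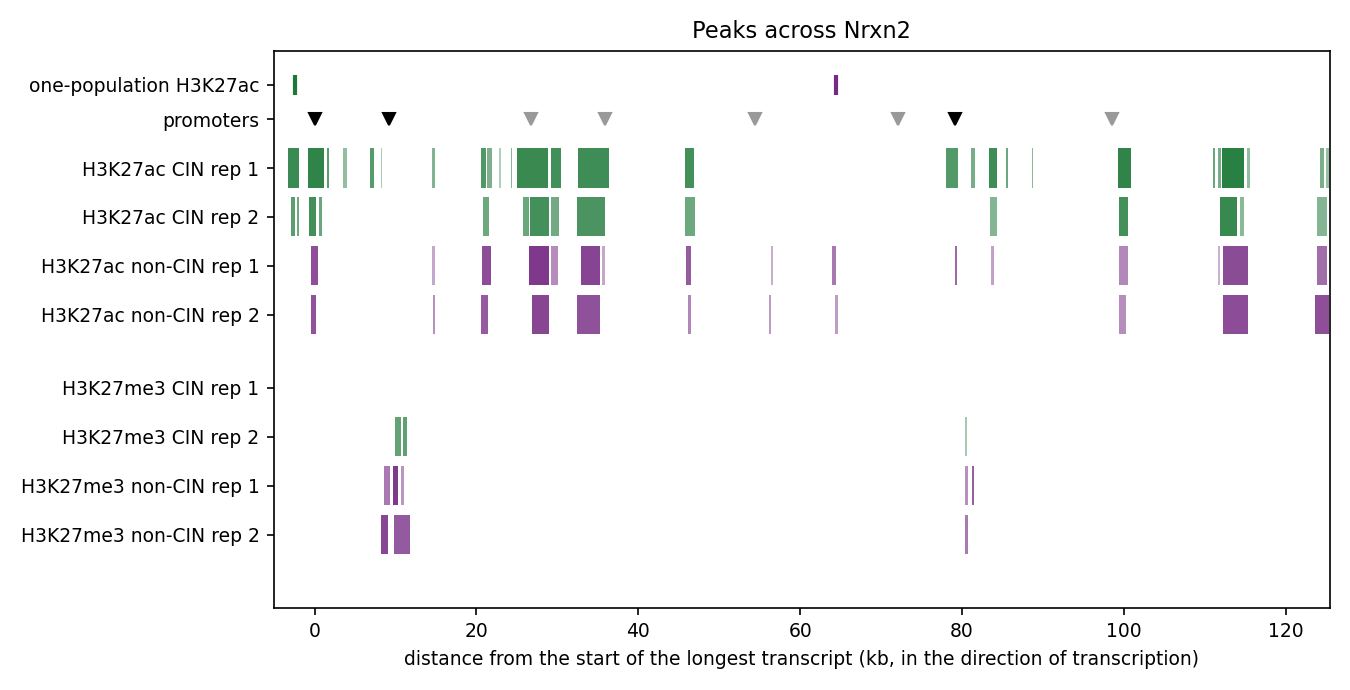
Peaks of the 8 lists across Nrxn2 by distance from its TSS in kb (bars, narrow ones widened to be visible, darker for a higher fold percentile; green, CINs; purple, non-CINs), with promoters as triangles (black, basic annotation; grey, comprehensive annotation only) and H3K27ac regions of a single population as ticks at the top. Of the 22 H3K27ac regions 8 are present in all 4 lists, and H3K27me3 near the second promoter is seen in 3 of 4 lists.

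The shared regions of Nrxn2 included the main promoter (chr19:6417983-6420500) and 2 broad stretches over exons 4 and 6 (chr19:6443805-6449208 and chr19:6451098-6455059). At chr19:6517961-6519563, over exon 22, the peaks stood at the 86.0 and 72.0 percentile in CINs and the 31.7 and 28.2 percentile in non-CINs, while in the region at the end of the gene (chr19:6542386-6544038) they stood at 36.7 and 28.6 in CINs, against 51.4 and 73.5 in non-CINs. The latter also overlaps Slc22a12, a transporter gene on the other strand, so it cannot be assigned to Nrxn2 alone. The CIN-only region (chr19:6415853-6416791) lay 2.41 kb upstream of the TSS, within the non-coding transcript Gm14965 on the other strand, at the 78.8 and 57.0 percentile. The non-CIN-only region (chr19:6483029-6483176) lay in intron 11 at the 43.7 and 17.5 percentile.

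H3K27me3 at Nrxn2 was the reverse of H3K27ac. No peak was called in CIN replicate 1, and the covered length was 1518 bp in CIN replicate 2, 2357 bp in non-CIN replicate 1 and 3202 bp in non-CIN replicate 2. The means were 759 ± 1073 bp in CINs and 2780 ± 598 bp in non-CINs (SD, n = 2). The peaks fell on 2 places, chr19:6426917-6430506, which reaches over exon 2 and the promoter at chr19:6427923, and chr19:6499088-6500244 in intron 17. At that second promoter, 9192 bp from the first, H3K27me3 peaks were present in both non-CIN lists (42.4 and 79.4 percentile) and in no CIN list, and it was the only promoter of the 17 with a mark in both lists of a single population and no list of the other. The corresponding non-CIN-only H3K27me3 region, chr19:6427369-6427821, was the only one of its kind among the 8 genes, whereas no CIN-only H3K27me3 region was found (2.02% and 1.33% of all genes had at least 1, and 8.41% and 4.24% of genes with long windows). It is not a firm call, since a CIN replicate 2 peak lay 893 bp away and no such region was left when peaks up to 1000 bp apart were joined, when absence was required in both CIN lists, or when replicate peaks had to overlap by 50%.

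Of the 17 promoters of the 8 genes (TSSs within 1 kb grouped, from 1 kb upstream to 100 bp downstream), 3 had H3K27ac in all 4 lists, 1 in 3 lists, 4 in 2 lists, 5 in 1 list and 4 in none. Among all promoters 38.2% had H3K27ac in all 4 lists. H3K27me3 was present in all 4 lists at 2 of the 17, against 8.12% of all promoters, and at 0 of the 17 with peaks of −log10 q of at least 4 alone. The 3 with H3K27ac throughout were the main promoters of Nrxn2 and Nlgn2 and the second of Nlgn1. They had a median of 17 CG dinucleotides in the 250 bases before the TSS, while the 4 with no H3K27ac, of which 3 are promoters of Nrxn3, had a median of 1.5. The 10 with H3K27ac in 1 to 3 lists had a median of 8, and all promoters had 6. The difference between all 4 lists and none was smaller with the transcript starts of the comprehensive annotation included, at a median of 6 for the 6 starts with H3K27ac in all 4 lists and 2 for the 13 with none.

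**Figure D4:**
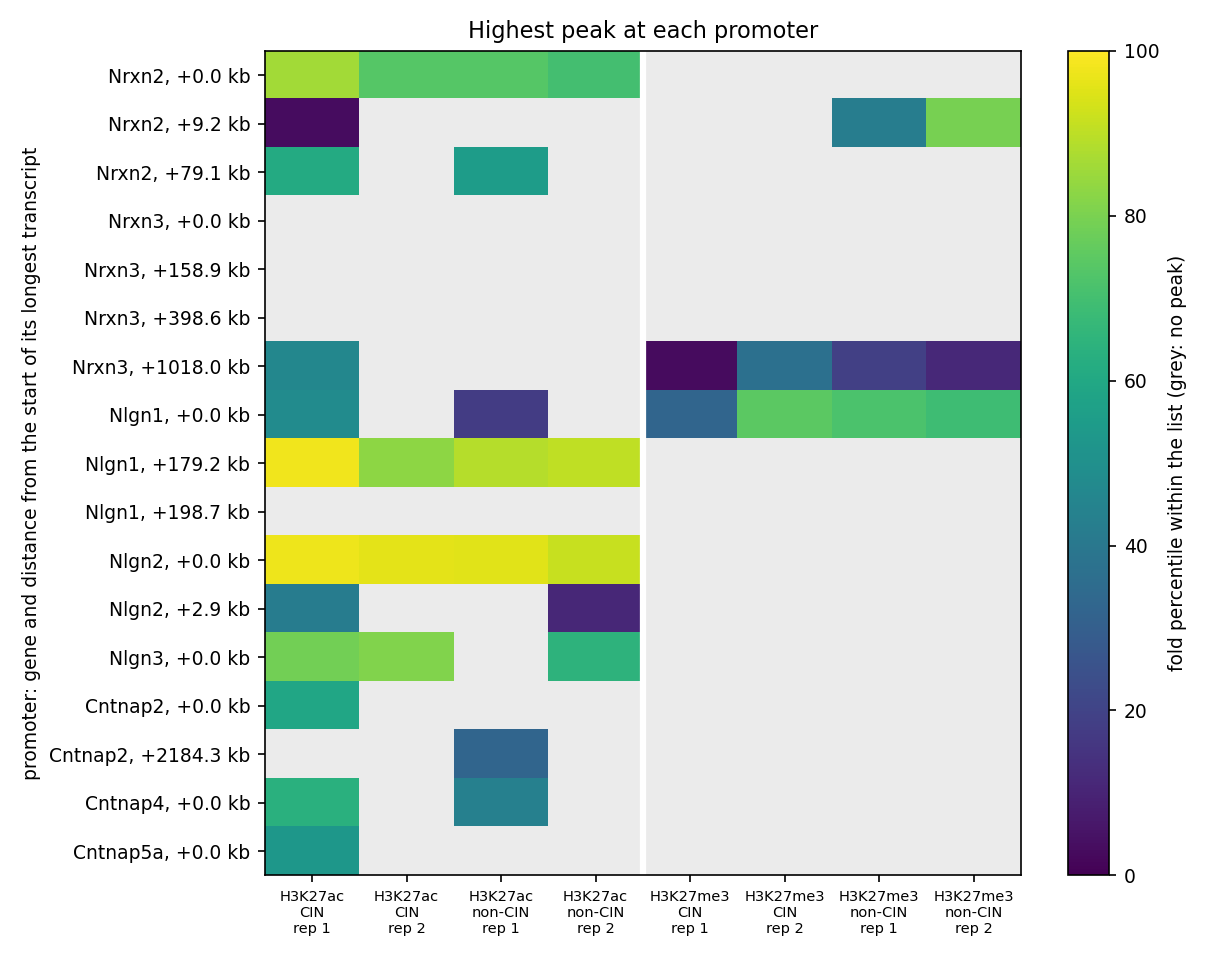
Highest peak at each of the 17 promoters (rows, named by gene and distance from the TSS of the longest transcript in kb) in each of the 8 lists (columns), coloured by its fold percentile within the list and grey where no peak was called. The rows with colour in all 4 H3K27ac columns are Nrxn2 and Nlgn2 at 0 kb and Nlgn1 at its second TSS, and those with colour in all 4 H3K27me3 columns are Nrxn3 at its internal TSS and Nlgn1 at 0 kb.

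Another 14 transcript starts are listed only in the comprehensive annotation, and 9 of them had no H3K27ac. For Nrxn3, 2 of these lie upstream of the window. The first, at chr12:88722876, had H3K27ac in all 4 lists (37.3 and 41.1 percentile in CINs, 10.8 and 63.4 in non-CINs). The second, at chr12:88725009, had H3K27ac in both CIN lists (67.2 and 54.8 percentile) and in neither non-CIN list. It lies 69495 bp upstream of the TSS of the longest protein-coding transcript and was the only transcript start of the 31 with H3K27ac in both CIN lists and in no non-CIN list. The CIN-only region over it was 2470 bp long (chr12:88724634-88727103), longer than any inside the Nrxn3 window.

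Nlgn1 (chr3:25426215-26332460, minus strand; window 911 kb) had H3K27ac lengths in the range of the neurexins, and the populations overlapped. The covered length was 24798 and 17542 bp in the CIN lists, against 21988 and 18936 bp in the non-CIN lists, so that the non-CIN values fell between the CIN values, with means of 21170 ± 5131 bp and 20462 ± 2158 bp (SD, n = 2). Its highest peak was at the 97.8, 90.7, 96.9 and 97.0 percentile, near the top of every list. Of its 43 H3K27ac regions 14 were found in all 4 lists, the most of any member. Among them were chr3:26000561-26004790 in intron 3, chr3:25902860-25905137 in intron 5 and the region at the second promoter, chr3:26149677-26153988. The latter stood at the 97.8 and 83 percentile in CINs and the 88.9 and 90.2 percentile in non-CINs.

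Around the most upstream TSS of Nlgn1 both marks were called side by side in all 4 lists, though H3K27ac reached the promoter itself only in replicate 1 of each population. H3K27me3 lay around the TSS and over the stretch before it (chr3:26331548-26335215, at the 67.9, 74.7, 71.6 and 68.9 percentile), while H3K27ac lay just inside the gene (chr3:26330888-26332257, at the 86.9, 81.5, 78.3 and 67.3 percentile). A non-coding transcript, A830092H15Rik, runs through the same place on the other strand, so neither mark can be assigned to Nlgn1 alone. Between lists of the same population and replicate number, the marks shared 531 bp in CIN replicate 1 and 1420 bp in non-CIN replicate 1 over the gene and none in either replicate 2. A second H3K27ac peak, before the TSS, was called in replicate 1 of each population (48.3 percentile in CINs, 17.8 in non-CINs) and in neither replicate 2. Of the 531 bp, 328 bp lay before the TSS and 203 bp inside the gene, whereas 560 bp of the 1420 bp lay in an H3K27me3 peak near the second promoter (chr3:26152625-26153184) that was called in non-CIN replicate 1 alone, at the 19.6 percentile. H3K27me3 in the whole window was 1873 and 3207 bp in the CIN lists, against 2882 and 1984 bp in the non-CIN lists, which overlap.

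**Figure D5:**
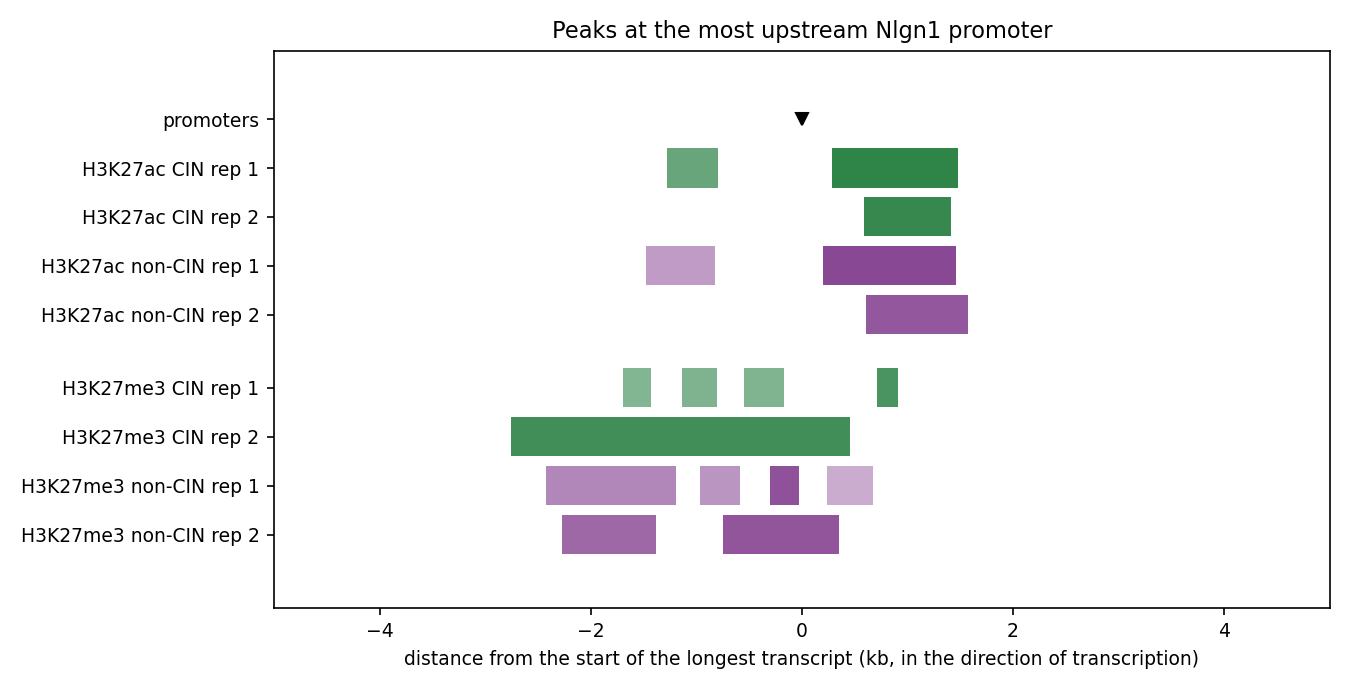
Peaks within 5 kb of the most upstream Nlgn1 TSS, by distance from it in kb in the direction of transcription (bars to scale, darker for a higher fold percentile; green, CINs; purple, non-CINs; the triangle marks the TSS). In all 4 H3K27ac lists a peak lies within the first 2 kb of the gene and in the 4 H3K27me3 lists most of the mark lies before the TSS, and replicate 1 of each population has a second H3K27ac peak before the TSS.

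The CIN-only regions of Nlgn1 (chr3:25679467-25679501 and chr3:26174216-26174408) and the non-CIN-only regions (chr3:25569057-25569316 and chr3:26119046-26119248) were at most 260 bp long. The CIN-only regions stood low in both lists, at the 3.29 and 14.7 and at the 18.0 and 2.83 percentile, and the non-CIN-only regions at the 55.0 and 21.9 and at the 13.5 and 12.8 percentile.

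Nlgn2 (chr11:69823122-69837784, minus strand) is short, with a window of 19.7 kb, and nearly all of its H3K27ac lay in a single region over the promoter and first exon (chr11:69834739-69839704). That region also reaches Tmem256, a gene that starts from the other strand nearby. The covered length was 4701 and 3066 bp in the CIN lists, against 2999 and 3448 bp in the non-CIN lists, which overlap. The highest peak was at the 97.4 and 95.8 percentile in CINs and the 95.7 and 91.4 percentile in non-CINs, so that the call for CINs rests on a narrow gap between replicate 2 of CINs and replicate 1 of non-CINs. No H3K27me3 peak was called in any list.

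Nlgn3 (chrX:101299168-101325963, plus strand; window 31.8 kb) likewise had H3K27ac in 1 region at the promoter and first exon (chrX:101299052-101301431), which also overlaps the non-coding transcript Gm21986, and no H3K27me3. Its covered length was 2352 and 1952 bp in the CIN lists, against 837 and 1984 bp in the non-CIN lists, and the low value of non-CIN replicate 1 was the only one that stood apart. The peak was at the 78.7 and 81.2 percentile in CINs and the 51.0 and 64.5 percentile in non-CINs, a wider gap than at Nlgn2. In non-CIN replicate 1 no peak reached the promoter itself. Of genes with an H3K27ac peak in all 4 lists, 21.3% had a higher top percentile in both CIN lists and 16.8% in both non-CIN lists, so 2 members of 8 in CINs and 1 in non-CINs is close to the background.

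Cntnap2 (chr6:45059357-47304213, plus strand) encodes Caspr2, a protein known from the clustering of potassium channels along axons, and it is the largest member with a window of 2249 kb. H3K27ac was sparse, at 12937 and 8294 bp in the CIN lists, against 9137 and 8111 bp in the non-CIN lists. The groups overlapped, although the CIN list was the longer within each replicate. They no longer overlapped with peaks of −log10 q of at least 4 alone, at 8050 and 6248 bp in the CIN lists and 5088 and 5395 bp in the non-CIN lists. Its highest peak was ranked higher in non-CINs, at the 89.1 and 92.9 percentile against 84.7 and 79.1 in CINs. In non-CINs it was the region in intron 21 (chr6:47239006-47240379), and in CINs it was the region in intron 22 (chr6:47272707-47273992), which stood at the 55.9 and 66.8 percentile in non-CINs. Thus the populations shared both regions but ranked them in opposite order.

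H3K27ac regions of a single population numbered 3 in CINs and 2 in non-CINs at Cntnap2, and all lay in introns. The CIN-only regions were chr6:47050380-47051344 in intron 18 (75.8 and 68.8 percentile), chr6:46612395-46613001 in intron 13 (65.8 and 73.2) and chr6:46406589-46406785 in intron 11 (52.3 and 13.1). The first 2 were among the strongest of all 20 and far from non-CIN peaks, with at least 124448 bp to the nearest one. The non-CIN-only regions were chr6:46080530-46080710 in intron 8 (38.0 and 41.5 percentile) and chr6:47244500-47244728 in intron 21 (32.7 and 4.81), the latter just after the internal TSS at chr6:47244387. H3K27me3 was slight, from 448 to 1174 bp in a list. The highest peak of replicate 1 in both populations lay at chr6:45876418-45876642 in intron 3 (70.7 percentile in CINs, 77.0 in non-CINs), and in replicate 2 of both populations a peak lay 1 kb inside the gene (chr6:45060474-45061647). CIN replicate 2 had another peak at chr6:47044357-47044560 in intron 17, at the 25.6 percentile. The first promoter had an H3K27ac peak in CIN replicate 1 alone, at the 59.4 percentile.

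Cntnap4 (chr8:112570043-112882717, plus strand; window 317.7 kb), a gene known from work on interneuron synapses, had little H3K27ac and a wide spread between replicates. The covered length was 3093 and 452 bp in the CIN lists, against 1516 and 200 bp in the non-CIN lists. Within each replicate the CIN list was the longer, but replicate 1 was several times replicate 2 in both populations, and the groups overlapped. The promoter had a peak in replicate 1 of each population (63.6 percentile in CINs, 43.6 in non-CINs) and in neither replicate 2. No list had H3K27me3 at the promoter, and in replicate 2 of each population an H3K27me3 peak was called in intron 1 (chr8:112570717-112571219), of 286 bp in CINs and 440 bp in non-CINs. Both peaks of the CIN replicate 2 list lay in the 2 CIN-only regions, chr8:112865978-112866206 in intron 21 (48.9 and 38.8 percentile) and chr8:112653872-112654071 in intron 2 (12.2 and 39.4).

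Cntnap5a (chr1:115684756-116587323, plus strand; window 907.6 kb) had nearly the same covered length in every list, 2855 and 2769 bp in the CIN lists, against 2604 and 2951 bp in the non-CIN lists, and no H3K27me3. With peaks of −log10 q of at least 4 alone, the difference, CIN minus non-CIN, went from 34.5 to -810.5 bp, and the lists still overlapped. Equal length did not mean the same places. Of its 6 H3K27ac regions, 2 were in all 4 lists (chr1:115783947-115785466 and chr1:116216328-116217482), 1 was CIN-only (chr1:116392142-116393121 in intron 13, at the 41.8 and 22.7 percentile) and 1 was non-CIN-only (chr1:115808746-115809527 in intron 1, at the 56.2 and 60.5 percentile). The last is the highest-ranked non-CIN-only region of the 8 genes and holds the TAATTA printed above.

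In total the 8 genes had 20 CIN-only H3K27ac regions, in 6 genes, and 7 non-CIN-only regions, in 5 genes, where 34.3% and 29.6% of genes with long windows had at least 1 (6.71% and 6.76% of all genes). These shares are not matched for window length, which reached 2249 kb at Cntnap2. The balance rested on replicate 1: it alone gave 72 CIN-only and 29 non-CIN-only regions, and replicate 2 alone gave 26 and 23. Nrxn3 alone held 11 of the 20, and the series as a whole had 4182 CIN-only and 2775 non-CIN-only regions. All but the upstream region of Nrxn2 were intronic. None of the 27 overlapped an H3K27me3 peak in any list. TAATTA was found in the central 200 bp of 0 of the 20 CIN-only regions, which allows a share of up to 15%, against 10.9% of the 4181 CIN-only regions of the series. It was found in 1 of the 7 non-CIN-only regions, against 3.89% of 2775, and in 2 of the 42 regions in all 4 lists, against 3.98% of 27742. Over the whole length of the regions, it was found in 4 of the 20 CIN-only regions, of which 3 are in Nrxn3 and 1 in Cntnap5a, against 21.5% in the series.

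Partners and relatives of these proteins, 40 genes measured of a list of 41, showed calls in each direction. H3K27ac was higher in CINs at 7 and in non-CINs at 4, with 8 genes without a peak, and the median difference was 0 bp. Of all genes 12.1% and 12% met these calls, and 19.9% and 18.6% of those with long windows, so the partners stood near the background. The balance did not hold under other settings, with 8 higher in CINs and 7 in non-CINs with list totals made equal, 8 and 8 with peaks of −log10 q of at least 4 alone, and 11 and 12 when compared within each replicate. The 6 with the largest difference in CINs were the scaffolds Magi2 (25503 and 21025 bp against 16162 and 16006 bp), Shank2 (17551 and 11156 bp against 10741 and 6958 bp) and Shank1 (3971 and 2216 bp against 909 and 256 bp), the calsyntenin Clstn2 (3795 and 1413 bp against none), the contactin Cntn1 (7433 and 6121 bp against 5069 and 4738 bp) and the leucine-rich repeat protein Lrrtm3 (3662 and 3108 bp against 2132 and 1318 bp). Higher in non-CINs were the latrophilin Adgrl2 (14823 and 11957 bp in CINs, 18519 and 16051 bp in non-CINs), the glutamate receptor relative Grid1 (10553 and 9932 bp, 13063 and 13149 bp), the contactin Cntn3 (896 and 459 bp, 1371 and 1514 bp) and Gphn, the gephyrin scaffold of inhibitory synapses (2548 and 3002 bp, 3135 and 3102 bp). By role, 2 of 3 calsyntenins, 3 of 8 scaffolds, 1 of 6 contactins and 1 of 4 LRRTM genes were higher in CINs. Higher in non-CINs were 1 scaffold, 1 contactin, 1 of 3 latrophilins and 1 of 5 cerebellins and glutamate receptor relatives. Cntnap1, Cntnap5b and Nxph1, the only Cntnap relatives and neurexophilin with an H3K27ac peak, were not called. For H3K27me3, 3 of the 40 were higher in CINs and 9 in non-CINs, with a median difference of -128.5 bp, against 3% and 4.49% of all genes and 5.68% and 12.2% of those with long windows. A CIN-only H3K27ac region was found in 14 partners and a non-CIN-only region in 12, against 34.3% and 29.6% of genes with long windows. They included Clstn2, with 2 CIN-only regions, and Clstn1, with 1 non-CIN-only region.

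The genes whose share of window covered was nearest over the 8 lists were compared among 17603 genes with windows of at least 10 kb. For Nrxn3 these were Robo2 (0.60 percentage points away) and Grin2b (0.81), for Nrxn2 Chsy1 (2.5) and Mfng (3.4), and for Nlgn1 Stx8 and Samhd1 (0.57 each). For Nlgn2 they were Pdxp (1.5) and Hnrnpul2 (2.0), and for Nlgn3 Dhx9 (0.89) and Ushbp1 (1.5). For Cntnap2 they were Vps13b (0.12) and Cpa6 (0.13), for Cntnap4 Pdilt (0.23) and Col17a1 (0.32), and for Cntnap5a Tenm1 (0.057) and Abca13 (0.15).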

How the data were processed

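The 8 peak lists come from native ChIP-seq of sorted CINs and non-CINs. Per the labels and the study's methods, reads were aligned by the authors with BWA 0.7.15 (mm10), filtered with SAMtools and used to call broad peaks for each replicate against its input with MACS2 (2.2.7 in the submitters' processing notes), with no model and no local background. For each peak the authors deposited a score (−log10 q scaled to a whole number), a fold enrichment (ratio of ChIP to input) and the −log10 of p and of q. None is a count, so the depth behind a peak is unknown. The 4 input samples entered only through the authors' calling.

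No peak reached past the end of a chromosome of the GRCm38 reference used here. Covered length is the union of peaks in a gene window. Fold enrichment was used only as a percentile within its list. Peaks 500 bp or less apart were merged to define regions of a single population, with absence judged in the list of the same replicate number, as the study's differential calling was run within replicates. Introns and exons are those of the longest protein-coding transcript. The members and lists were chosen with earlier results of these data known. Up to 5 regions per gene, mark and population were named, by the lower percentile of their 2 lists, and up to 6 partner genes per direction, by the difference of mean H3K27ac covered length among those called. The labels number the replicates and give pooled litters for each sample, and the study's text calls them biological replicates. Calculations used Python 3.11.15, NumPy 2.4.6, pysam 0.24.0 and matplotlib 3.10.9, and the interval operations were tested on simulated data against bedtools 2.31.1. Alternatives were other merging gaps, −log10 q of at least 4, list totals, windows, promoter widths, the replicate block and single replicates.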

Additional observations from a re-analysis of the deposited data

How the results depend on the processing

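The 3 called differences in covered length (H3K27ac at Nrxn2 and Nrxn3, H3K27me3 at Nrxn2) kept their sign in all 24 recomputed values. Many of these could not change sign. Other windows often held the same peaks and gave the same value, and within a single replicate the sign follows from the call itself. With a replicate block (the same sign within each replicate), H3K27ac was higher in CINs at 4 members (Cntnap2 and Cntnap4 added) and H3K27me3 higher in non-CINs at 3, and 11 partners were higher in CINs and 12 in non-CINs. Of genes with windows of 100 kb or more, 33.8% and 31.1% met this looser rule for H3K27ac in CINs and non-CINs, and 25.2% for H3K27me3 in non-CINs (19.8%, 19.4% and 10.2% of all genes). The replicate 1 minus replicate 2 differences of the 2 populations correlated at 0.532 for H3K27ac (14542 genes) and 0.909 for H3K27me3 (8790 genes), so same-numbered lists deviated together. With −log10 q of at least 4 there were 13 CIN-only H3K27ac regions, 3 non-CIN-only H3K27me3 regions, 8 promoters without H3K27ac, 0 with H3K27me3 in every list, and 8 partners higher in non-CINs (7 with list totals equal). An overlap of 50% left 11 CIN-only and 3 non-CIN-only H3K27ac regions and 0 non-CIN-only H3K27me3 regions. The latter were 5 with no merging, 0 with a gap of 1000 bp and 0 with no replicate block. With promoters of 2 kb on each side, 6 had H3K27ac in every list, and TAATTA was in 20% of CIN-only regions over their whole length.

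With a single replicate, calls are 1 list against 1, and counts ranged from 4 to 8 members higher in CINs and 0 to 4 in non-CINs for H3K27ac length, and 0 to 1 and 4 for H3K27me3. For the top percentile they ranged from 3 to 7 and 1 to 5 (H3K27ac) and 0 to 3 and 2 to 3 (H3K27me3). CIN-only regions ranged from 26 to 72 and non-CIN-only from 23 to 29 (H3K27ac), and from 1 to 5 and 3 to 8 (H3K27me3). From 4 to 6 promoters had H3K27ac in every list and 4 to 12 in none, and 11 to 20 partners were higher in CINs and 12 to 21 in non-CINs. Windows from the longest transcript of any type, chosen after seeing the data, gave 21 CIN-only H3K27ac regions and a Nrxn3 difference of 21210 bp. Where a value moved, the cause was not tested.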
